A study of Mus musculus with 66 samples.

Results

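The mouse anal canal was examined 20 days after the start of a chemical colitis and compared with the same tissue of uninjured mice. The comparison used the 7 anal libraries of these 2 groups, chosen by their section and day labels, out of 66 bulk RNA-seq libraries in the series. All mice were wild-type C57Bl/6, bought at 6 weeks of age. The labels name no transgene or deletion. The 3 mice of day 20 (mice 17, 18 and 19) had been exposed to 3% dextran sulfate sodium (DSS), an irritant of the colonic mucosa, for 6 days from day 0. The 4 mice of day 0 (mice 1, 2, 3 and 4) were uninjured controls. Each library came from 1 mouse and no mouse was in both groups. Anal sections of days 6 and 14 (3 mice each), and rectal and mid-colonic sections of the same 7 mice, served for further comparisons.

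The anal canal is lined by stratified squamous epithelium that passes into haired skin on the outer side and meets the columnar epithelium of the rectum on the inner side. Near that junction lies a transitional zone rich in keratin 7. After DSS colitis the adjoining rectum can be covered by squamous cells, and that covering was dissected in this series as a separate section, the squamous neo-epithelium. CXC chemokines draw neutrophils into tissue, and interleukin-1 is an early alarm cytokine of injured epithelium and of myeloid cells.

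The 7 libraries carried high squamous markers. The basal keratin Krt14 lay between 1208 and 6213 TPM (transcript abundance scaled to the library total), and the suprabasal keratin Krt13 between 3203 and 10978 TPM. Transcripts of neighbouring tissues were uneven between libraries, and the cause was not tested. Hair follicle genes summed to 3.14 TPM in mouse 1 of day 0, against 416 to 1128 TPM in the other day 0 mice and 81.8 to 1310 TPM at day 20. Skeletal muscle genes summed to 2322 to 25544 TPM at day 0 and 3659 to 5993 TPM at day 20. Between 12406 and 13789 genes per library reached 1 TPM, and pairs of libraries correlated across genes at a Pearson r of 0.900 to 0.963. No read counts were in the table used, so the depth is unknown, and the labels name no batch. In bulk tissue, fewer cells of a type and less RNA per cell cannot be told apart.

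At day 20 the anal section differed from the uninjured state in both directions. Of 13747 genes tested with limma on log2(TPM + 1), 150 were higher and 51 lower at a Benjamini-Hochberg adjusted p under 0.05, which is 1.46% of those tested (1.09% higher and 0.371% lower). The median log2 change was 1.49 among the higher genes, -1.25 among the lower genes and 0.02 over all genes tested. In all 201 called genes the 2 groups of mice did not overlap, and 18.9% of the genes tested had no overlap. With TMM scaling the split was 154 higher and 90 lower, with 143 of the 201 genes called again. It was 764 and 628 with all anal samples in 1 fit, 133 and 104 without mouse 1, and 8 and 7 without mouse 18, so the excess of higher calls depended on the setting. The count depended on single mice: it was 15 without mouse 18, 17 without mouse 19, 26 without mouse 2, 37 without mouse 3, 84 without mouse 4, 136 without mouse 17 and 237 without mouse 1. Of the 28 genes with the largest changes among those at 8 TPM or more, clones and pseudogenes left out, 7 kept the call without mouse 2 and 8 without mouse 3. Of the 26 of them still tested, 5 kept it without mouse 18 and 5 without mouse 19. Among the 150 higher genes, mouse 17 was the lowest of the day 20 mice in 113 (75.3%), against 28.1% of all genes tested. Mouse 18 was the highest in 84.

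**Figure D1:**
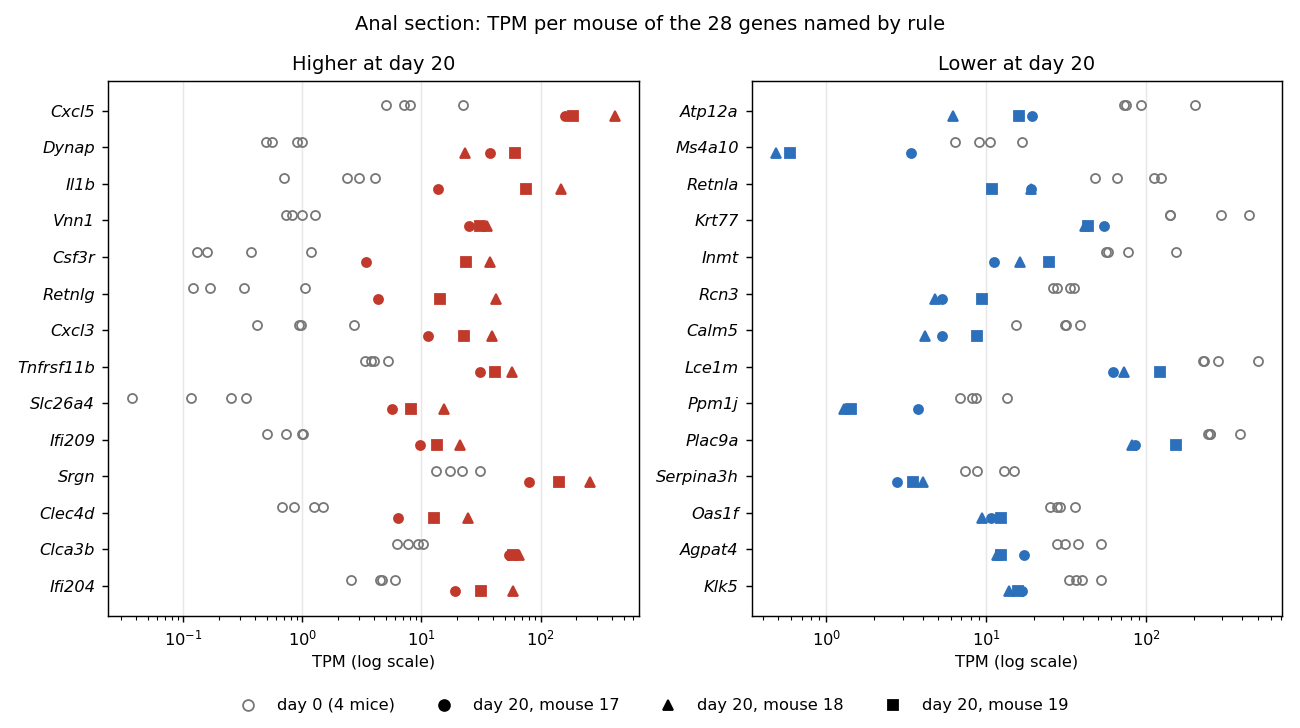
TPM on a log scale (x axis) of the 14 genes with the largest called rises (left) and the 14 with the largest called falls (right). Open grey circles are the 4 day 0 mice and filled symbols the 3 day 20 mice. In no row do the groups overlap, and mouse 17 has the lowest day 20 value in most rows of the left panel.

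The neutrophil-recruiting chemokines had the highest median change of the 38 gene lists described. Of the 7 genes listed, 6 ligands and their receptor, 5 passed the filter on low values. Of these 5, 4 rose and none fell, against 1.09% of all genes tested that were called higher. The median log2 change of the 5 was 2.28, against 0.02 over all genes tested. Cxcl2 and Cxcl3 reached the filter through their day 20 values, and the median is the value of Cxcl2. The count, the median and its rank therefore only describe the list and support nothing further. The count was 1 without mouse 2, 3 or 18, 0 without mouse 19, 1 without the filter and 5 without mouse 17. A chromosome 5 cluster of 146.6 kb (GRCm38.p6) holds Cxcl5, Ppbp, Pf4, Cxcl3, Cxcl15, Cxcl1 and Cxcl2, in that order.

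Cxcl5, an epithelial neutrophil attractant, stood at 22.3, 5.04, 7.11 and 7.97 TPM in mice 1 to 4 of day 0 and at 159, 419 and 187 TPM in mice 17, 18 and 19 of day 20. The change was 4.53 ± 0.49 on the log2 scale (SE, adjusted p = 0.0107). Every day 20 mouse was far above the highest control. Without mouse 19 the adjusted p was 0.055. Ppbp, whose product is processed to the neutrophil attractant CXCL7, was abundant before injury, at 1268, 669, 717 and 646 TPM, and stood at 2563, 3569 and 4375 TPM at day 20. That change was smaller, 2.11 ± 0.28 (adjusted p = 0.0189). It missed the threshold without mouse 2 (0.069), mouse 3 (0.060), mouse 18 (0.112) or mouse 19 (0.097).

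Cxcl3 was near the filter limit in controls, at 2.71, 0.940, 0.974 and 0.418 TPM, and at 11.3, 38.9 and 22.8 TPM at day 20, a log2 change of 3.42 ± 0.45 (adjusted p = 0.0189). Cxcl2 went from 0.588, 0, 0.611 and 1.05 TPM to 3.01, 10.4 and 7.62 TPM, a log2 change of 2.28 ± 0.40 (adjusted p = 0.0400). For both, mouse 17 was the lowest and mouse 18 the highest of the treated mice, and no control reached mouse 17. The call of Cxcl3 was lost without mouse 2, 3, 18 or 19 (adjusted p 0.056 to 0.097). The call of Cxcl2 held without mouse 17 (0.022) and was lost in the fits without any other mouse. Pf4, a platelet chemokine inside the cluster, did not pass the test, with a log2 change of -0.24 ± 0.30 (adjusted p = 0.710). Cxcl1 and Cxcl15 were under 1.5 TPM in all 7 libraries and were not tested. Cxcr2, the receptor of these ligands, stood at 0.891 to 1.94 TPM at day 0 and 2.45 to 13.4 TPM at day 20 without passing the test (adjusted p = 0.120).

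The promoter windows of 3 chemokine genes of the cluster are shown because their transcripts rose together, from 250 bases before to 50 bases after the RefSeq start (GRCm38.p6, plus strand). Capitals mark GGAATTTCC, a κB-type motif that was searched for on both strands. The windows are chr5:90785851-90786150 for Cxcl3, chr5:90903649-90903948 for Cxcl2 and chr5:90768268-90768567 for Ppbp.
Cxcl3: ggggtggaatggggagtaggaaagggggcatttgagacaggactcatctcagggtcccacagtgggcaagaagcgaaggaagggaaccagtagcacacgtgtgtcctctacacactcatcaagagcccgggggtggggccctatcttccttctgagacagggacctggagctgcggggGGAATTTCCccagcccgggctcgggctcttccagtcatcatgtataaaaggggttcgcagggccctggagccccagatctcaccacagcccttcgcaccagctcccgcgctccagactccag
Cxcl2: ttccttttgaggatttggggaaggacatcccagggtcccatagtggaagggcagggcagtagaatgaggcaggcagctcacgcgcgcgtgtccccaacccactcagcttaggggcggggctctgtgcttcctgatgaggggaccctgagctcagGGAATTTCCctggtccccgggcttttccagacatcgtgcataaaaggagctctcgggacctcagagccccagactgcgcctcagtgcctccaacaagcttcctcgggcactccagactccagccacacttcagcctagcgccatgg
Ppbp: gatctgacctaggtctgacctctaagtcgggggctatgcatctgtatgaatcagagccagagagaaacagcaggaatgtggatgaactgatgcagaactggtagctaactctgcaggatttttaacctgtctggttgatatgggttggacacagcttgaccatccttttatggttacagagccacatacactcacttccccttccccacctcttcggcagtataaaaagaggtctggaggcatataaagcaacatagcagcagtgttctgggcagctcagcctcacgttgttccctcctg

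The motif starts 72 bases before the gene start in Cxcl3 and 96 bases before it in Cxcl2, and these letters are not in the Ppbp window. Of 32851 promoter windows in the table, 104 hold the motif (0.317%), and so do 49 of 10155 tested genes with a window (0.483%). Of 108 risen genes with a window, 2 hold it (1.85%), Cxcl2 and Cxcl3. The window of Cxcl1, which was not tested, also holds it, 70 bases before its start. The windows of Pf4, which did not pass the test, and of Cxcl15, which was not tested, do not hold it. Cxcl5, which also rose, has no window in the promoter set used and could not be searched.

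Some neutrophil and myeloid transcripts were higher as well. Of 12 neutrophil genes, 8 were tested, 3 rose (Csf3r, Retnlg and Ltf), none fell, and the median log2 change was 1.44. Over all genes tested, 1.09% were called higher. Csf3r and Retnlg reached the filter through their day 20 values, so count and median only describe the list. The count was 1 without mouse 1, 2, 3 or 4, 0 without mouse 18 or 19, and 4 without mouse 17. Csf3r, the receptor for granulocyte colony-stimulating factor, stood at 1.19, 0.129, 0.371 and 0.159 TPM in controls and 3.42, 37.6 and 23.5 TPM at day 20. Its log2 change was 3.52 ± 0.67 (adjusted p = 0.0489). Retnlg, a resistin-like protein of neutrophils, ranged from 0.120 to 1.04 TPM in controls and stood at 4.28, 42.2 and 14.2 TPM at day 20, a log2 change of 3.47 ± 0.62 (adjusted p = 0.0425). Mouse 17 was the lowest and mouse 18 the highest treated mouse for both, and neither gene overlapped the controls. Each was called without mouse 17 (adjusted p 0.004 and 0.014) and in no other fit that left out 1 mouse, where adjusted p ran from 0.056 to 0.189.

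The calprotectin subunits did not pass. S100a8 stood at 524, 209, 176 and 130 TPM in controls and 311, 1139 and 504 TPM at day 20 (adjusted p = 0.232), and S100a9 had an adjusted p of 0.535. In both, mouse 1 of day 0 overlapped the treated mice. Ly6g, the usual surface marker of mouse neutrophils, was at 77.8 to 178 TPM at day 0 and at 5.28 to 44.2 TPM at day 20 (adjusted p = 0.092). The granule genes Camp and Ngp were at or under 1.35 TPM in all 7 libraries. The neutrophil list summed to 924 to 2111 TPM at day 0 and 2347 to 5573 TPM at day 20, much of it Ltf and the calprotectin genes.

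Il1b, the secreted interleukin-1 beta, stood at 4.10, 2.99, 0.698 and 2.37 TPM in controls and at 13.8, 148 and 75.4 TPM at day 20. Its log2 change of 4.07 ± 0.73 passed (adjusted p = 0.0425), and it was called in 1 of 7 fits that left out a mouse, that without mouse 17. It was the only call among the 6 tested of 17 members of the interleukin-1, IL-36 and IL-20 list, whose median was 1.15. Over all genes tested, 1.09% were called higher. With TMM scaling no gene of that list was called, Il1b included. Il33, an epithelial alarmin, stood at 11.3 to 17.3 TPM at day 0 and 22.2 to 58.7 TPM at day 20 without passing (adjusted p = 0.070). Srgn, the core protein of the storage proteoglycan of leukocyte granules, rose from 13.3 to 31.0 TPM in controls to 80.3, 259 and 144 TPM (log2 change 2.80 ± 0.41, adjusted p = 0.0238). Clec4d, a myeloid lectin receptor, rose by 2.76 ± 0.39 (adjusted p = 0.0238), from 0.667 to 1.5 TPM to 6.38, 24.4 and 12.9 TPM. Both calls were lost without mouse 2, 3, 4, 18 or 19.

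Of 12 tested macrophage and monocyte genes none was called, and 8 had an unadjusted p under 0.05, all higher, with a median of 0.66. Over all genes tested, 10.8% had an unadjusted p under 0.05 and a higher level. Cd68 was nearest to a call at 13.9 to 27.2 TPM in controls and 39.6 to 52.1 TPM at day 20 (adjusted p = 0.065). Of 7 tested mast cell genes none was called and 6 had an unadjusted p under 0.05 with a higher level (median 0.99). No member of the type I interferon list (15 tested, median 0.36), the interferon-gamma and antigen presentation list (15 tested, median 0.65), the T cell list (6 tested, median 0.23) or the B and plasma cell list (7 tested, median 0.85) was called. Mouse 18 had the highest sum of all 7 mice in both interferon lists, at 493 and 2605 TPM. The DNA-sensing interferon-inducible genes Ifi209 and Ifi204, which belong to neither list, did rise. Ifi209 went from 0.506 to 1.01 TPM to 9.78, 21.0 and 13.5 TPM (log2 change 3.07 ± 0.27, adjusted p = 0.0040) and was called in all 7 fits that left out a mouse. Ifi204 rose by 2.69 ± 0.38 (adjusted p = 0.0238). The Ifi200 genes are close copies of each other, so their reads may have been divided among them.

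**Figure D2:**
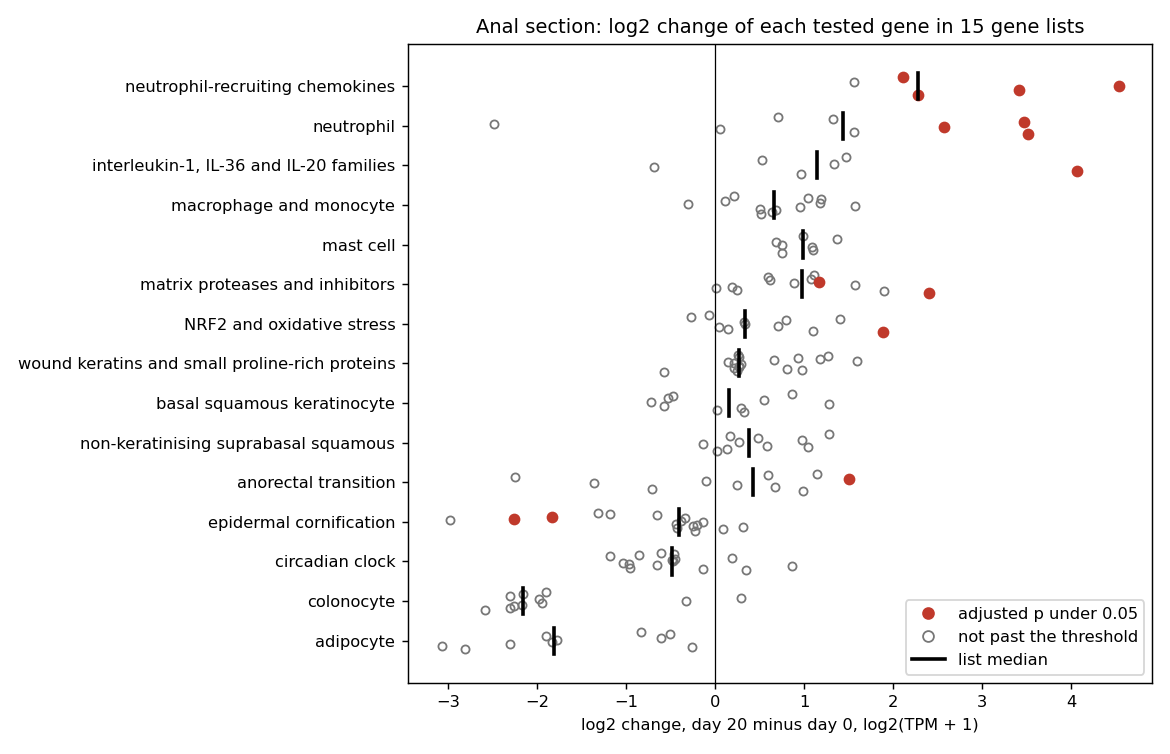
Log2 change from day 0 to day 20 (x axis) of each tested gene in 15 lists (rows). Filled red points are genes with an adjusted p under 0.05, open points did not pass, and the bar is the list median. The chemokine list has 4 of 5 genes past the threshold, while the colonocyte and adipocyte lists lie to the left with none past it.

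Other risen genes, grouped here after their values were seen, include enzymes, transporters and secreted proteins made by epithelia among other tissues. Vnn1, a pantetheinase that recycles vitamin B5, stood at 0.995, 0.825, 1.29 and 0.724 TPM in controls and at 25.0, 35.5 and 31.3 TPM at day 20. The gene lies at chr10:23894688-23905344 (GRCm38.p6). Its log2 change was 4.01 ± 0.20 (adjusted p = 0.00021). Clca3b, of the calcium-activated chloride channel regulator family, went from 10.2, 6.25, 9.38 and 7.64 TPM to 54.4, 66.5 and 59.2 TPM (2.72 ± 0.19, adjusted p = 0.00090). Tnfrsf11b, osteoprotegerin, a decoy receptor for RANK ligand, went from 5.27, 4.02, 3.35 and 3.79 TPM to 31.2, 58.1 and 41.7 TPM (3.10 ± 0.24, adjusted p = 0.0016). The groups were far apart for all 3, with treated mice that resembled one another. Their adjusted p stayed at or under 0.0231 whichever mouse was left out. These 3 genes, with Cxcl17, Serpina3n, Ifi209 and 3 pseudogene-like loci, were the 9 called in all 7 fits that left out a mouse.

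Slc26a4, pendrin, an anion exchanger, was under 0.34 TPM in every control and at 5.62, 15.4 and 8.20 TPM at day 20 (3.08 ± 0.31, adjusted p = 0.0094). Dynap stood at 0.498 to 0.994 TPM in controls and 37.4, 23.1 and 60.8 TPM at day 20 (4.48 ± 0.32, adjusted p = 0.00090). Both were called in each of the 4 fits that left out a control, and fits without a day 20 mouse left them untested because too few samples reached 1 TPM. Ltf, lactoferrin, an iron-binding antimicrobial protein of secretory epithelia and neutrophil granules, stood at 548, 257, 323 and 338 TPM in controls and 1643, 2980 and 1907 TPM at day 20 (2.58 ± 0.29, adjusted p = 0.0117). Its adjusted p was 0.051 without mouse 18 and 0.058 without mouse 19. Wfdc2, a secreted protease inhibitor, rose from 151 to 375 TPM to 675, 1010 and 1014 TPM (2.01 ± 0.32, adjusted p = 0.032).

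Secreted signals of epithelial and stromal cells were also among the calls. Cxcl17, a chemokine of mucosal surfaces, stood at 0.960 to 1.07 TPM in controls and 7.16, 14.0 and 7.42 TPM at day 20 (2.33 ± 0.25, adjusted p = 0.0107). Igfbp3, a carrier of insulin-like growth factors, went from 60.2, 63.4, 71.3 and 54.4 TPM to 197, 272 and 361 TPM (2.10 ± 0.21, adjusted p = 0.0094). Calcb, calcitonin gene-related peptide beta, was at 81.4 to 159 TPM in controls and 371, 607 and 776 TPM at day 20 (2.35 ± 0.29, adjusted p = 0.0189). Controls were tight for the first 2 genes, and no treated mouse overlapped them for any of the 3. Wif1, a secreted inhibitor of Wnt ligands, rose by 1.79 ± 0.21 (adjusted p = 0.013), from 1.41 to 1.81 TPM to 6.13 to 9.39 TPM. Serpina3n, a secreted protease inhibitor with close copies in its family, rose from 17.6 to 30.3 TPM to 115, 145 and 88.6 TPM (2.21 ± 0.23, adjusted p = 0.00995). Enpp3, an ectonucleotidase, rose from 4.18 to 5.32 TPM to 20.5, 46.9 and 33.4 TPM (2.54 ± 0.27, adjusted p = 0.010). The call of Calcb was lost without mouse 2, 18 or 19, that of Igfbp3 without mouse 18 (0.051) and that of Enpp3 without mouse 19 (0.058). All of these genes were named after their values were seen, Serpina3n and Cxcl17 because every fit that left out a mouse called them.

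Several surface molecules of epithelial and myeloid cells rose as well, likewise picked after their values were seen. Cd44, the hyaluronan receptor, stood at 20.2, 23.0, 29.1 and 24.9 TPM in controls and 55.3, 78.6 and 86.6 TPM at day 20 (1.54 ± 0.20, adjusted p = 0.0189). Plet1, a surface protein of epithelial progenitors, rose from 79.6 to 127 TPM to 253 to 415 TPM (1.63 ± 0.22, adjusted p = 0.0189). Neither overlapped the controls. Adam8, a metalloprotease of leukocytes, rose from 2.41 to 7.22 TPM to 21.7, 63.6 and 27.9 TPM (2.63 ± 0.41, adjusted p = 0.031). Ms4a7, a macrophage membrane protein, rose from 5.41 to 11.5 TPM to 29.0, 35.4 and 36.5 TPM (1.80 ± 0.26, adjusted p = 0.0238). Ccr1, a chemokine receptor, and Clec4e, a myeloid lectin receptor, rose by 1.89 ± 0.32 and 2.32 ± 0.35 (adjusted p = 0.040 and 0.029). Hdc, the enzyme that makes histamine, rose from 0.859 to 1.58 TPM to 4.19, 25.8 and 16.5 TPM (2.64 ± 0.50, adjusted p = 0.048), with mouse 17 again the lowest. Nfe2l2, which encodes the transcription factor NRF2, rose by 0.96 ± 0.18 (adjusted p = 0.044).

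Among keratinocyte genes, the transitional keratin Krt7 was higher, at 326, 186, 213 and 224 TPM in controls and 627, 683 and 678 TPM at day 20 (1.51 ± 0.19, adjusted p = 0.0189), with mice 2, 3, 18 and 19 each needed for the call. It was the single call among 10 tested genes of the anorectal transition list (median 0.42). Over all genes tested, 1.09% were called higher. With TMM scaling no gene of that list was called, Krt7 included. The simple-epithelial keratin Krt8 of the same list lay lower, at 549 to 1833 TPM in controls and 83.8 to 394 TPM at day 20, without passing (adjusted p = 0.093). Dsg3, a desmoglein of squamous cell junctions, rose from 16.3 to 25.0 TPM to 48.1, 67.2 and 68.5 TPM (1.51 ± 0.21, adjusted p = 0.022). Dsc2, its desmocollin partner, rose by 1.07 ± 0.16 (adjusted p = 0.025). Tmprss11g, a membrane serine protease of squamous epithelium, rose from 20.0 to 33.7 TPM to 85.4, 176 and 166 TPM (2.44 ± 0.29, adjusted p = 0.016), with its relatives Tmprss11e and Tmprss11b also called. None of the 10 basal keratinocyte genes (median 0.16), the 10 non-keratinising suprabasal genes (median 0.38) or the 17 wound keratins and small proline-rich genes (median 0.27) was called. Krt6a, a wound keratin, was 1260 to 1859 TPM in controls and 2198 to 3560 TPM at day 20 (adjusted p = 0.072).

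Of 12 tested matrix proteases and inhibitors 2 rose, against 1.09% of all genes tested that were called higher, and the list median was 0.98. Mmp10 reached the filter through its day 20 values alone, so count and median only describe the list. Plat, tissue plasminogen activator, went from 17.8, 15.1, 17.7 and 14.7 TPM to 36.4, 38.1 and 38.7 TPM (1.16 ± 0.15, adjusted p = 0.0189). Mmp10, stromelysin 2, was at or under 0.356 TPM in controls and at 2.05, 4.05 and 12.6 TPM at day 20 (2.40 ± 0.46, adjusted p = 0.048), and its call was lost in each of the 4 fits that left out a control (fits without a day 20 mouse did not test it). Of 11 NRF2 target genes 1 rose, Akr1b8, an aldo-keto reductase, from 16.3 to 27.3 TPM to 57.7, 87.6 and 96.2 TPM (1.88 ± 0.24, adjusted p = 0.0189; list median 0.34). Of 13 tested squamous serpins and stefins 1 rose, Stfa2l1, listed at 0 in every control and at 1.62, 9.95 and 5.45 TPM at day 20. It too reached the filter through day 20 alone, and stefin genes are close copies, so that call is uncertain. Of 16 proliferation genes none was called (median 0.49).

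The lists given in this paragraph held no call in the main fit either. The acute-phase and antimicrobial list (10 tested) had a median of 0.43, the type 17 and type 2 cytokine list (3 tested) 0.20 and the immediate early and heat shock list (11 tested) -0.44. The circadian clock list (15 tested, median -0.48) had 6 genes with an unadjusted p under 0.05 and a lower level, against 8.44% of all genes tested. With TMM scaling 2 of its genes were called lower, and with all anal samples in 1 fit 4 were called lower and 1 higher. The labels used give no time of dissection within the day. The cholesterol synthesis list (12 tested) had a median of -0.18. Among lists of other cell types, the median was 0.42 for endothelial cells (9 tested), -0.51 for skeletal muscle (13 tested), -0.20 for smooth muscle (9 tested), 0.51 for sebaceous gland (10 tested), -0.02 for hair follicle (15 tested) and -0.77 for goblet cells (8 tested). It was 0.15 for Schwann cells and neurons (6 tested), -0.37 for melanocytes (2 tested), -0.52 for red blood cells (5 tested) and 0.58 for sex-linked genes (4 tested).

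The genes that fell included a set typical of the cornified skin surface. Krt77, a keratin of the suprabasal epidermis and sweat ducts, stood at 141, 438, 295 and 141 TPM in controls and 54.5, 41.7 and 43.2 TPM at day 20 (-2.26 ± 0.40, adjusted p = 0.0406). Lce1m, a late cornified envelope protein, went from 226, 503, 282 and 231 TPM to 62.1, 72.4 and 122 TPM (-1.83 ± 0.33, adjusted p = 0.0425). These were the 2 calls among 16 tested epidermal cornification genes, whose median was -0.41. Over all genes tested, 0.371% were called lower. The mouse gene Calm5, a calmodulin-like protein of differentiating keratinocytes, fell by 2.07 ± 0.34 (adjusted p = 0.035). Klk5, a kallikrein that starts the shedding of cornified cells, stood at 39.9, 51.9, 36.3 and 32.9 TPM in controls and 16.8, 13.9 and 15.8 TPM at day 20 (-1.30 ± 0.19, adjusted p = 0.0238). Oas1f fell by 1.35 ± 0.18 (adjusted p = 0.0189), though its reads may be divided with other Oas1 copies. Major cornification genes did not pass: Krt10 lay at 937 to 2245 TPM and 1017 to 1306 TPM (adjusted p = 0.485), and Flg at 254 to 817 TPM and 496 to 792 TPM (adjusted p = 0.687). Krt77, Lce1m, Calm5, Klk5 and Oas1f each lost the call without mouse 2, 3, 18 or 19, and the first 3 also without mouse 4 or 17. Cd207, langerin, the marker of Langerhans cells, fell from 4.26 to 4.88 TPM to 1.12 to 1.82 TPM (-1.20 ± 0.19, adjusted p = 0.033), the 1 call among 4 tested dendritic cell genes. The connexin Gjb5 and the barrier transcription factor Klf4 fell by 1.18 ± 0.20 and 1.09 ± 0.17.

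A further set of fallen genes is typical of the colon surface. Atp12a, the colonic proton-potassium pump, stood at 72.3, 93.2, 74.8 and 202 TPM in controls and 19.5, 6.23 and 16.1 TPM at day 20 (-2.90 ± 0.45, adjusted p = 0.031). Its call was lost without mouse 2, 3, 18 or 19 (adjusted p 0.062 to 0.114). Ms4a10, whose level was also high in the rectum (31.5 TPM at day 0), went from 10.5, 9.03, 6.34 and 16.7 TPM to 3.39, 0.482 and 0.594 TPM (-2.34 ± 0.44, adjusted p = 0.046). Of the fits that left out a mouse, that without mouse 17 called it (0.022). Of the colonocyte markers, 9 of 11 tested had an unadjusted p under 0.05 and a lower level, none was called, and the median was -2.15. With all anal samples in 1 fit, 6 of them were called lower. Over all genes tested, 8.44% had an unadjusted p under 0.05 and a lower level. The list summed to 1623 to 4972 TPM at day 0 and 1598, 310 and 750 TPM in mice 17, 18 and 19. The part of colonic mucosa within the dissection in these falls was not tested.

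Stromal and other transcripts made up the remaining named falls. Gsn, the actin-severing protein gelsolin, stood at 817, 907, 1052 and 861 TPM in controls and 387, 355 and 404 TPM at day 20 (-1.25 ± 0.14, adjusted p = 0.011). Clec3b, tetranectin, a plasminogen-binding protein, went from 216 to 229 TPM to 103 to 109 TPM (-1.07 ± 0.11, adjusted p = 0.010). The elastic fibre genes Mfap2, Mfap5, Ltbp4 and Efemp1 also fell, by 0.82 to 1.07, and none of the 14 fibroblast and fibrillar collagen genes was called (median -0.23). Retnla, a resistin-like protein of type 2 inflammation, went from 47.7 to 124 TPM to 10.9 to 19.1 TPM (-2.29 ± 0.36, adjusted p = 0.031), and Inmt, a methyltransferase, from 56.4 to 153 TPM to 11.2 to 24.6 TPM (-2.18 ± 0.38, adjusted p = 0.041). Rcn3, a calcium-binding protein of the secretory pathway, fell by 2.12 ± 0.24 (adjusted p = 0.012). Ppm1j, a protein phosphatase, Agpat4, an acyltransferase of lipid synthesis, Plac9a and Serpina3h fell by 1.74, 1.35, 1.42 and 1.41. Adipocyte markers were uneven, summing to 127 to 4111 TPM at day 0, with mouse 3 the highest, and 265 to 596 TPM at day 20. None of 10 was called (median -1.81), and their part in the stromal falls was not tested.

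Of the nuclear-encoded genes of mitochondrial energy metabolism among the calls, Cox7a2 fell from 386 to 440 TPM to 223 to 234 TPM (-0.88 ± 0.12, adjusted p = 0.019), and Ndufa2, Atp5j2, Usmg5, Acadvl, Acat1 and Etfb fell by 0.66 to 1.01. These 7 were picked after their values were seen, and how many such genes were tested was not counted. Over all genes tested, 0.371% were called lower. The mitochondrial genome itself went the other way for 1 of 12 tested genes, mt-Nd3, at 1532 to 2632 TPM in controls and 4549 to 5543 TPM at day 20 (1.32 ± 0.22, adjusted p = 0.035). Over all genes tested, 1.09% were called higher, and with TMM scaling no gene of the mitochondrial genome was. Mitochondrial transcripts took 6.26% to 12.3% of the total at day 0 and 9.77% to 13.0% at day 20. Rpl23a-ps3, Gm10925 and Gm11518 had the largest falls of all, for example Rpl23a-ps3 from 434 to 1036 TPM to 9.7e-06 TPM or less in each day 20 mouse. These loci resemble expressed genes, so the quantifier may have moved reads between copies, and their changes are uncertain.

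The anal section of day 20 was then set against earlier days of the same course. Against day 14, 3 of 13549 genes were called (0.0221%), 1 higher (0.00738%) and 2 lower (0.0148%), named because they are few: the immunoglobulin segment Igkv12-46 higher and the pseudogene-like loci Rpl23a-ps3 and Gm13493 lower, while 1116 (8.24%) had an unadjusted p under 0.05. The count was 0 without mouse 14, 16 or 17 and 5 without mouse 19. Against day 6, the last day of DSS, 894 of 13449 genes were higher (6.65%) and 962 lower (7.15%), together 13.8%, and 33% had an unadjusted p under 0.05. That count was 493 without mouse 10, 579 without mouse 19, 584 without mouse 17, 713 without mouse 8, 867 without mouse 9 and 1171 without mouse 18.

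The injury genes named here were lower at day 20 than at day 6, though not all were back at the uninjured level. Cxcl1, a chemokine of acute injury, was at 122, 57.8 and 43.2 TPM on day 6 and at 0.289, 1.38 and 0.841 TPM on day 20 (-5.26 ± 0.41, adjusted p = 0.0026). Il1rl1, the receptor for interleukin-33, fell by 4.63 ± 0.44 (adjusted p = 0.0039) and Mmp10 by 4.38 ± 0.54 (adjusted p = 0.0087) from day 6. Mmp10 was thus below its day 6 level of 85.5 to 169 TPM yet above the uninjured level. Saa3, an acute-phase protein, stood at 1504 to 1985 TPM on day 6 and at 73.8, 213 and 83.5 TPM on day 20 (-3.95 ± 0.39, adjusted p = 0.0051), while 2 uninjured mice were under 0.3 TPM and the others at 26.7 and 9.17 TPM. Against day 0 its change of 4.68 ± 1.13 did not pass (adjusted p = 0.087). The named rises from day 6 were those of Ltf (5.64 ± 0.33, adjusted p = 0.0014), the hair keratin-associated gene Krtap6-3 (5.26 ± 0.56, adjusted p = 0.0057) and the interferon-induced relative Ifit1bl1 (4.93 ± 0.75, adjusted p = 0.0135). The sum of hair follicle transcripts differed between libraries of the same group, as given above. The part of that spread in the Krtap6-3 change was not tested.

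The mean levels of Vnn1, Slc26a4, Ltf and Ppbp were lower through day 9 than at days 14 and 20, a step that was not itself tested. The comparisons against days 0, 6 and 14 share the day 20 libraries, so only levels and each comparison's own test are given. Mean Vnn1 was 0.957, 0.482, 1.67, 2.45, 32.4 and 30.6 TPM in the anal section at days 0, 3, 6, 9, 14 and 20, and day 20 exceeded day 6 by 3.60 ± 0.26 (adjusted p = 0.0020). Mean Slc26a4 was under 0.39 TPM until day 9 and 12.3 and 9.76 TPM at days 14 and 20. Mean Ltf was 366 TPM at day 0, 64.8 and 43.1 TPM at days 3 and 6, and 2838 and 2177 TPM at days 14 and 20. Mean Ppbp was 825, 187, 286, 629, 3179 and 3502 TPM over the 6 days. Il1b was different, at 253 TPM on day 6, 59.6 TPM on day 9, 234 TPM on day 14 and 79.0 TPM on day 20. Between days 14 and 20 the change in Vnn1 was -0.03 ± 0.28 (adjusted p = 0.981) and that in Cxcl5 0.08 ± 0.51 (adjusted p = 0.971), which leaves room for changes in either direction.

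**Figure D3:**
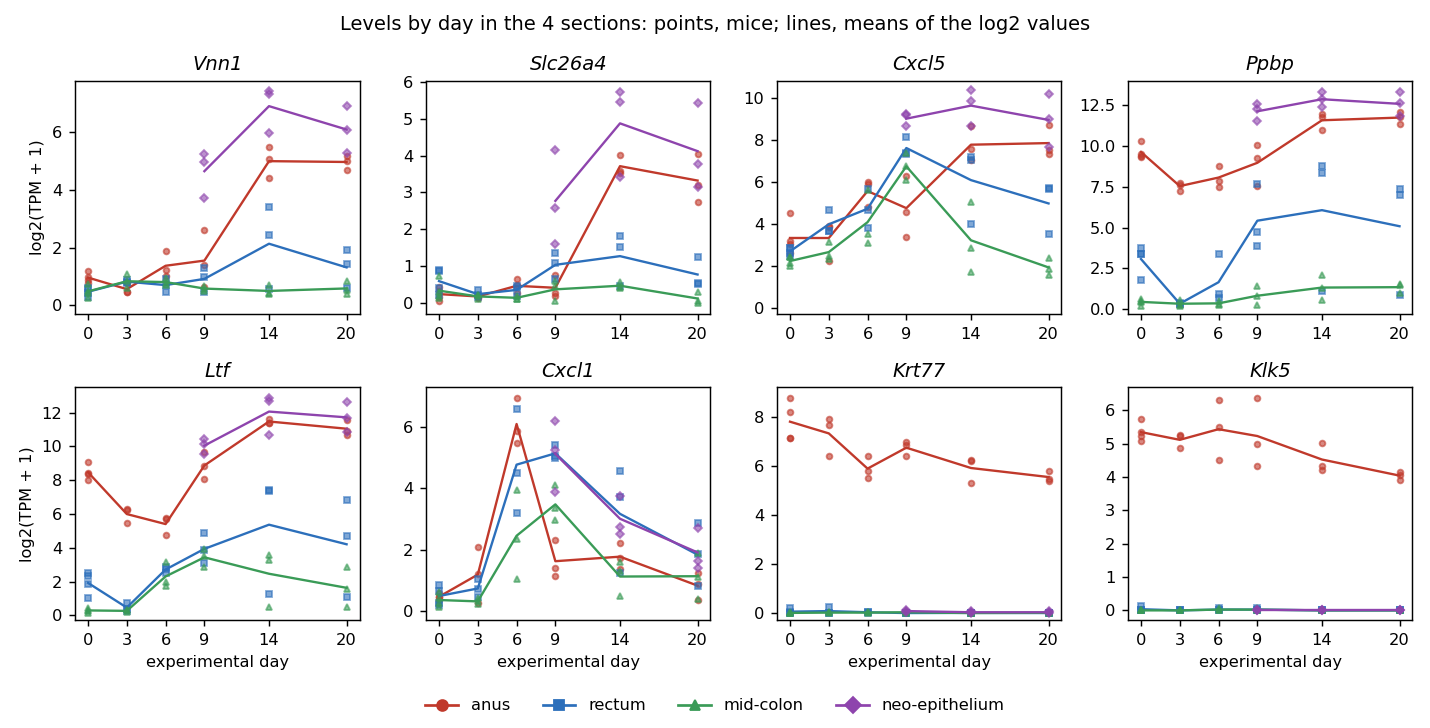
Log2(TPM + 1) (y axis) by experimental day (x axis) of 8 genes in the anal, rectal, mid-colonic and neo-epithelial sections. Points are mice and lines join the means of the log2 values. Vnn1, Slc26a4, Ppbp and Ltf are high in the anal section at days 14 and 20 and high in the neo-epithelium, Cxcl1 peaks at day 6 in the anal section, and Krt77 and Klk5 are near 0 outside it.

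The risen genes were also prominent in the squamous neo-epithelium. Across its 9 samples of days 9, 14 and 20, Vnn1 ranged from 12.3 to 170 TPM (median 62.3 TPM), Cxcl5 from 206 to 1339 TPM (median 584 TPM), Ppbp from 2968 to 10256 TPM (median 6043 TPM) and Krt7 from 900 to 1360 TPM (median 1137 TPM). To describe all calls, the mean of the 6 neo-epithelial samples of days 9 and 14 was set against the mean of the 3 anal samples of day 3, which share no mouse with the main comparison. This description was chosen after the values were seen and carries no test. Day 3 lies within the 6 days of DSS. The anal means of Ltf, Ppbp and Vnn1 were lower then than at day 0, as given above. Such genes reach a 2-fold difference more easily than against the uninjured anus. Of the 150 risen genes 132 (88.0%) were at least 2-fold higher in the neo-epithelium on the log2(TPM + 1) scale, against 9.55% of all genes tested. Of the 51 fallen genes none was, and 37 (72.5%) were at least 2-fold lower, against 10.2% of all genes tested. Krt77, Lce1m, Calm5, Klk5 and Oas1f were all under 0.5 TPM in each neo-epithelial sample. The part of neo-epithelium-like tissue within the anal dissection in the calls was not tested.

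Whether the anal changes differed from those of other sections of the same mice was tested as an interaction. Against the rectum, 16 of 14647 genes had a higher and 13 a lower day 20 response in the anus (0.109% and 0.0888%, together 0.198%), and 10.5% had an unadjusted p under 0.05. With the mouse as a block, 6 passed. With TMM scaling the split was 19 and 32. Vnn1 differed by 3.16 ± 0.37 (adjusted p = 0.0038, with the block 0.026), with mean rectal levels of 0.388 TPM at day 0 and 1.66 TPM at day 20. Slc26a4 differed by 2.90 ± 0.42 (adjusted p = 0.0151, with the block 0.021), with mean rectal levels of 0.539 and 0.759 TPM. Dynap differed by 3.34 ± 0.58 (adjusted p = 0.037), which did not pass with the block (0.139). Wfdc18, a whey acidic protein family member, rose in the rectum from 10.2 to 284 TPM and stood at 58.6 and 64.2 TPM in the anus, a difference of -4.33 ± 0.50 (adjusted p = 0.0038, with the block 0.021). The atrial myosin light chain Myl7 and Khdc1a differed by -4.07 ± 0.75 and -3.56 ± 0.59 (adjusted p = 0.049 and 0.031), and neither passed with the block (0.128 and 0.104). Vnn1 and Wfdc18 passed whichever mouse was left out (adjusted p at or under 0.043). Slc26a4 was lost without mouse 1, 2, 3 or 4 (0.051 to 0.108) and was not tested without mouse 18. Dynap was lost without mouse 1, 2, 3, 4 or 18 (0.092 to 0.179), and Myl7 and Khdc1a were called without mouse 19 and lost without any other mouse. Leaving out single mice gave counts of 3 without mouse 2, 5 without mouse 3, 8 without mouse 18, 16 without mouse 4, 18 without mouse 1 and 77 without mouse 19.

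For Il1b, Srgn and Tnfrsf11b no difference from the rectum was called. Il1b differed by 0.11 ± 1.39 (adjusted p = 0.987), and its rectal change was 3.96 ± 1.03. Srgn differed by -0.27 ± 0.91 (adjusted p = 0.942), with a rectal change of 3.06 ± 0.72. Tnfrsf11b differed by 0.30 ± 0.81 (adjusted p = 0.928), with a rectal change of 2.80 ± 0.70. The errors are wide enough to allow sizeable differences either way.

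Against the mid-colon, 26 of 14494 genes had a higher and 15 a lower response (0.179% and 0.103%, together 0.283%), and 10.3% had an unadjusted p under 0.05. With the block, 6 passed. Cxcl5 differed by 4.84 ± 0.59 (adjusted p = 0.0024, with the block 0.046), and its mid-colonic mean was 3.73 TPM at day 0 and 2.90 TPM at day 20. Dynap differed by 4.48 ± 0.36 (adjusted p = 2.7e-05, with the block 0.0019) and Vnn1 by 3.91 ± 0.27 (adjusted p = 7.9e-06, with the block 0.0012). Mid-colonic Dynap was at 0 TPM at both days, so its difference is the anal change itself. Its adjusted p also draws on mid-colonic libraries without that transcript. Mean mid-colonic Vnn1 was 0.408 TPM at day 0 and 0.512 TPM at day 20. Ms4a10 and Nov, a matricellular protein, differed by -2.75 ± 0.51 and -2.29 ± 0.34 (adjusted p = 0.044 and 0.015). Neither passed with the block (0.200 and 0.124). Cxcl5 and Vnn1 passed whichever mouse was left out (adjusted p at or under 0.039), and Dynap passed without each control. Ms4a10 and Nov were lost without mouse 1, 2, 3, 18 or 19. The count was 5 without mouse 18, 6 without mouse 3, 7 without mouse 2, 13 without mouse 19, 22 without mouse 1, 23 without mouse 17 and 188 without mouse 4.

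**Figure D4:**
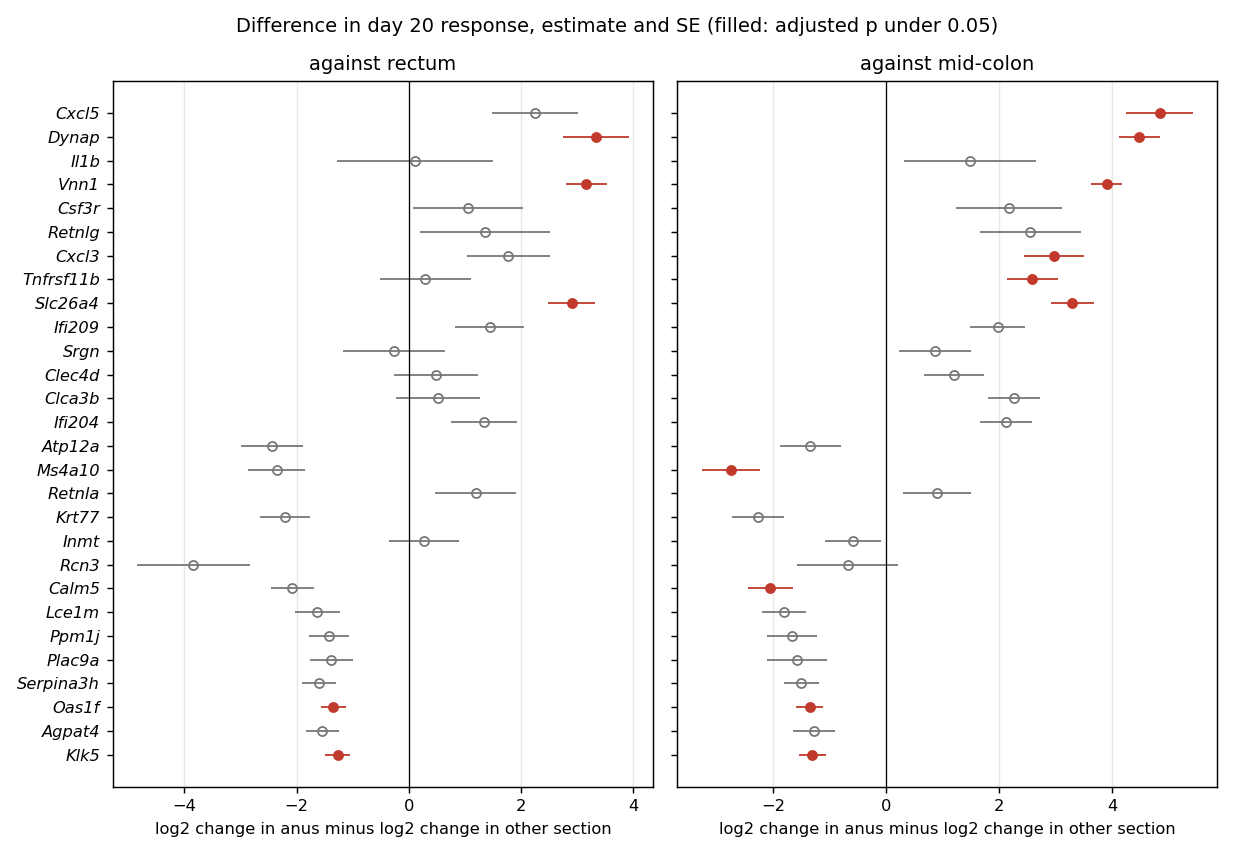
Difference between the day 20 response of the anal section and that of the rectum (left) or mid-colon (right), as the log2 estimate with its SE (x axis), for the named genes (rows). Filled red points have an adjusted p under 0.05 without the mouse block. Vnn1, Dynap and Slc26a4 are filled in both panels, and Il1b and Srgn are filled in neither.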

How the data were processed

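The authors deposited 1 table of TPM per transcript. The submitters' processing notes name kallisto, CASAVA and build mm10, and the labels' protocols describe stranded mRNA libraries read as single ends of 75 bases, with the muscle layer removed. Of the deposited rows, 37344 without values and 1318 repeats were dropped, and the TPM values of 88198 transcripts were summed to 30452 genes. TPM is relative to each library's total, and a near-identical copy can take another's reads. The members and gene lists were chosen with earlier results of these data known.

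Genes with at least 1 TPM in 3 samples were log2-transformed after adding 1 TPM and fitted by limma (version 3.58.1, under R 4.3.3, empirical Bayes with a mean trend), using only the groups compared. Adjusted p-values are Benjamini-Hochberg over all genes tested, and calls are under 0.05. Fold changes on this scale understate the change of low genes. The fits were tested on simulated data. Named genes are the 14 largest called rises and falls with no overlap between groups, a mean of at least 8 TPM in the higher group and a gene symbol that is not a clone or segment name, up to 3 per direction in the other comparisons (with that mean in any group), and members of 38 lists. Other called genes were named after their values were seen, and some genes that the rule names are not reported here. The labels do not say whether mice shared cages or litters, so p-values measure the spread between these samples. Sections of a mouse come from the same animal per the labels, and their deviations from group means correlated across genes at a mean r of 0.084 (anus with rectum) and 0.021 (anus with mid-colon). Promoters are from RefSeq (GRCm38.p6).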

Additional observations from a re-analysis of the deposited data

Results flagged for a closer look

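In the 4 uninjured mice, 1 value stood apart from the others in 4 of the named genes. The highest day 0 value was 202 TPM for Atp12a (mouse 4), 22.3 TPM for Cxcl5 (mouse 1), 384 TPM for Plac9a (mouse 2) and 1268 TPM for Ppbp (mouse 1). Chance alone picks out about 1 in 20 groups by this criterion. The number of groups screened is not given here, so these 4 genes cannot be set against that rate.

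The day 20 response of the anal section differed from that of another section of the same mice for 14 of the genes named by rule and reported here. This holds for the fit without a mouse block. The rule picked Wfdc18, Myl7, Khdc1a and Nov only by their calls in these same comparisons. It picked Dynap, Vnn1, Slc26a4, Cxcl5 and Ms4a10 by such calls as well. The count of 14 therefore only describes the named genes and supports nothing further. Over all genes tested, 0.198% differed from the rectum and 0.283% from the mid-colon. Against the rectum, the log2 differences were 3.34 for Dynap, 3.16 for Vnn1, 2.90 for Slc26a4, -1.27 for Klk5, -1.34 for Oas1f, -3.56 for Khdc1a, -4.07 for Myl7 and -4.33 for Wfdc18. Against the mid-colon, they were 4.84 for Cxcl5, 4.48 for Dynap, 3.91 for Vnn1, 3.30 for Slc26a4, 2.97 for Cxcl3, 2.58 for Tnfrsf11b, -1.30 for Klk5, -1.35 for Oas1f, -2.05 for Calm5, -2.29 for Nov and -2.75 for Ms4a10. Klk5, Oas1f and Calm5 were near 0 TPM in the rectum and mid-colon at both days, so their differences are close to the anal change alone. Mid-colonic means of Dynap, Slc26a4, Vnn1 and Cxcl3, and rectal means of Slc26a4, were also under 1 TPM at both days. Those differences mostly restate the anal change as well. With the mouse as a block, the difference from the rectum did not pass for Dynap (adjusted p = 0.139), Klk5 (0.168), Oas1f (0.155), Khdc1a (0.104) and Myl7 (0.128) by limma. The difference from the mid-colon did not pass for Cxcl3 (0.200), Tnfrsf11b (0.220), Klk5 (0.283), Oas1f (0.256), Calm5 (0.200), Nov (0.124) and Ms4a10 (0.200). Called genes that were named after their values were seen also differed without the block. Enpp3 and Cxcl17 differed from both sections, and Calcb, Dsg3, Wif1, Tmprss11g, Tmprss11e and Efemp1 from the mid-colon. Of these, Enpp3 against the rectum (adjusted p = 0.025) and Cxcl17 against the mid-colon (0.046) passed by limma with the block, and the others did not. The causes were not tested.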

How the results depend on the processing

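None of the 201 genes called against day 0 changed sign in an alternative that tested it. For day 20 against day 0, 201 calls became 1392 with all anal samples in 1 fit, which kept 194 of the 201, and 59 with no filter on low values, which kept 51. TMM scaling gave 244 and kept 143 of the 201. Fits without 1 mouse gave 15 to 237. Of the 28 genes named by rule, 24 kept the call with TMM scaling, 10 without the filter, 5 of 26 without mouse 18 and 5 of 26 without mouse 19. Against day 14, 3 calls became 5 with a constant prior, 6 without the filter and 0 to 5 without 1 mouse. Against day 6, 1856 calls became 1095 without the filter, 810 with a 2-fold minimum and 493 to 1171 without 1 mouse. For the difference from the rectum, 29 calls became 51 with TMM scaling, 19 without the filter, 14 with a pseudocount of 0.1 TPM, 3 to 77 without 1 mouse and 6 under a replicate block on mouse. For the difference from the mid-colon, 41 calls became 23 with a filter of 5 TPM, 16 with a pseudocount of 0.1 TPM, 5 to 188 without 1 mouse and 6 under a replicate block on mouse. Fits without 1 mouse also have fewer samples. The part of sample number in their changed counts, and the causes of the other changes, were not tested. No paired analysis was possible between days because no mouse was sampled at more than 1 day. With depth unknown, values near 1 TPM carry an unknown counting error.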
